A study of Mus musculus with 2 samples.

Results

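The cytosolic ribosomal protein genes encode the protein components of the ribosomes that translate nuclear messages outside mitochondria. Members were taken by name: symbols starting with Rpl or Rps followed by a digit, together with Rplp0, Rplp1, Rplp2 and Rpsa, leaving out the Rps6k kinases and symbols holding -ps. Of the 12744 genes listed in both libraries, 83 were members, 49 of them named Rpl (large subunit) and 34 named Rps (small subunit). The rule also took in 6 genes that do not encode a standard ribosome component under that name. These were the paralogs Rpl22l1, Rpl36al, Rpl7l1, Rps27l and Rps27rt, and Rps19bp1, which encodes a protein that binds the Rps19 product. Leaving them out left 77 members, 46 Rpl and 31 Rps.

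The study profiled single cells of the hippocampus of 57-week-old mice with 10x Genomics 3' v3.1 chemistry. One library came from wt littermate controls and the other from GlaKO mice, which lack Gla, the gene of the lysosomal enzyme alpha-galactosidase A that is deficient in Fabry disease. All tissue was perfused, dissociated with enzymes and sorted with the dye 7-AAD before loading, and the labels do not say how many animals went into a library. With 1 library per genotype no difference between genotypes could be tested, and every interval given is a 95% interval for counting error only.

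Each ribosome carries 1 copy of most of these proteins, and their messages are among the most abundant in a cell. Many of the messages begin with a run of pyrimidines after a C, the 5' terminal oligopyrimidine (TOP) motif, which couples their translation to growth signalling through mTOR. Ribosomal protein genes also have many processed pseudogenes and near-identical copies, so counts at the 3' end can be divided between a gene and its copy.

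After removal of doublets the wt library held 5417 cells and 31817700 UMIs (unique molecule counts), and the GlaKO library 4511 cells and 29423730 UMIs. The median cell held 5059 UMIs in wt and 6075 in GlaKO. Cells were clustered and named from marker genes, so each class name stands for cells like that type; 7 classes had at least 100 cells in each library and were compared. The doublet caller marked 0.478% of wt barcodes and 1.33% of GlaKO barcodes, too few in wt for the call to be relied on, and 6 barcodes occurred in both libraries. Summed over all kept cells, Gla had 396 UMIs in wt (12.4 CPM, the count scaled to a library or class total of 1000000 UMIs) and 219 in GlaKO (7.44 CPM), a log2 ratio of -0.74. The labels used here do not give the altered part of Gla, so 3' counts are an incomplete check of the genotype. This ratio is over all cells and cannot be told apart from cell make-up. Choroid plexus epithelium was 2608 of the 5417 wt cells and 801 of the 4511 GlaKO cells. The 4 hemoglobin genes used as erythroid markers summed to between 22.9 and 41.8 CPM over the classes in wt. In GlaKO they summed to between 92.6 and 976 CPM, and their part in the results below was not tested.

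Ribosomal protein genes took very different shares of the UMIs in different classes. T cells gave the highest share in both libraries, 36.9% (36.8 to 37.0) of UMIs in wt and 33.6% (33.5 to 33.7) in GlaKO. Astrocytes gave the lowest, 2.97% (2.94 to 3.00) in wt and 2.96% (2.94 to 2.99) in GlaKO. The highest share was thus 12.4 times the lowest in wt and 11.3 times in GlaKO. Microglia followed T cells with 12.29% in wt and 12.04% in GlaKO, and choroid plexus epithelium, which secretes cerebrospinal fluid, had 11.2% and 11.8%. Neurons had 6.06% and 5.42%, oligodendrocytes 5.64% and 5.33%, and oligodendrocyte precursors 4.499% and 4.602%. The order of the 7 classes by summed UMIs was the same in both libraries. Neurons and oligodendrocytes were the closest neighbours in that order. Their counting intervals did not overlap in either library, but their cells did. By per-cell medians neurons lay below oligodendrocytes, with 4.38% against 5.61% in wt and 3.52% against 5.3% in GlaKO. Microglia likewise lay below choroid plexus epithelium by per-cell medians, with 10.3% against 11.1% in wt and 10.9% against 11.6% in GlaKO.

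**Figure D1:**
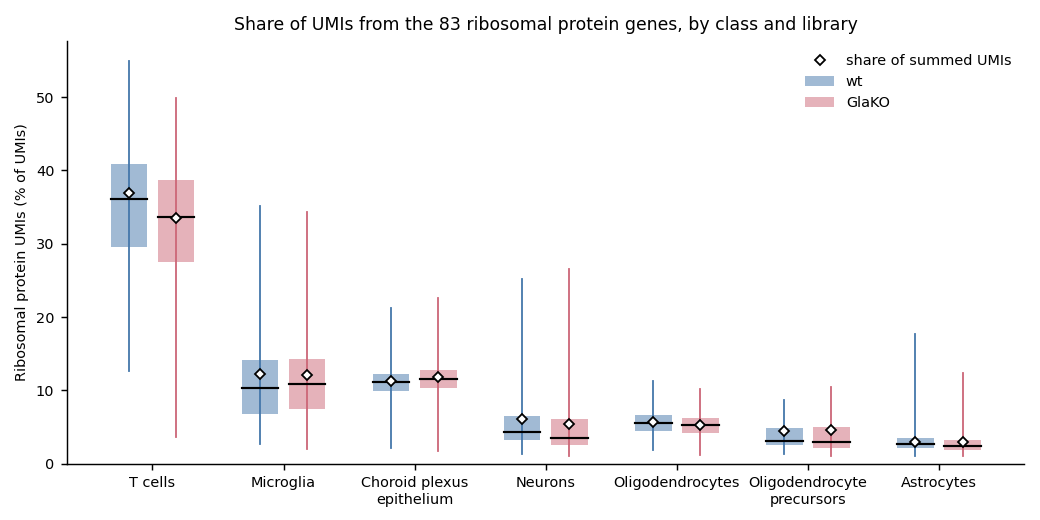
Share of each cell's UMIs that came from the 83 ribosomal protein genes (y axis, percent) in the 7 compared classes (x axis) of the wt and GlaKO libraries; bars span the middle quartiles of cells, black lines mark medians, thin lines run from the lowest to the highest cell, and diamonds mark the share of summed UMIs. T cells lie above the other classes, with medians of 36.1% in wt and 33.7% in GlaKO, and astrocytes lowest, with 2.66% and 2.43%.

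Cells within a class also spread widely. Single T cells ranged from 12.6% to 55.0% in wt and from 3.70% to 49.9% in GlaKO, and single microglia from 2.64% to 35.1% and from 2.07% to 34.4%. The ranges of microglia and T cells therefore overlapped, while the middle quartiles did not. Among wt cells the middle quartiles spanned 29.6% to 40.9% for T cells and 6.78% to 14.2% for microglia.

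Clusters inside a class differed in their shares. Microglia fell into 3 clusters: the main one had shares of 12.3% in wt and 12.2% in GlaKO, a shallow one 4.444% and 4.201%, and a small one of 18 and 24 cells 28.8% and 24.1%. Cells of the main cluster alone ranged from 3.14% to 24.1% in wt and from 2.27% to 28.5% in GlaKO. The shallow cluster, led by Entpd1, Mpeg1 and Cd84, had medians of 1891 UMIs per cell in wt and 2052 in GlaKO, against 5923 and 7064 in the main cluster. The small cluster was led by Tyrobp, Lyz2 and Fcer1g. Neurons were as uneven. A cluster led by Ndnf, Reln and Nhlh2, the first 2 of them genes known from Cajal-Retzius cells, had 15.0% in wt and 14.4% in GlaKO. The neurons led by C1ql3 and C1ql2, genes known from dentate granule cells, had 4.81% and 4.78%, and those led by Cck had 4.26% and 3.25%. Oligodendrocyte precursors divided into a cluster led by Pdgfra and Cspg4, with 2.74% and 2.43%, and one led by Cacng4, C1ql1 and Cdo1, with 5.87% and 5.72%. In each of these 3 classes the gap between the highest and the lowest cluster was wider than the gap between libraries within any of its clusters.

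**Figure D2:**
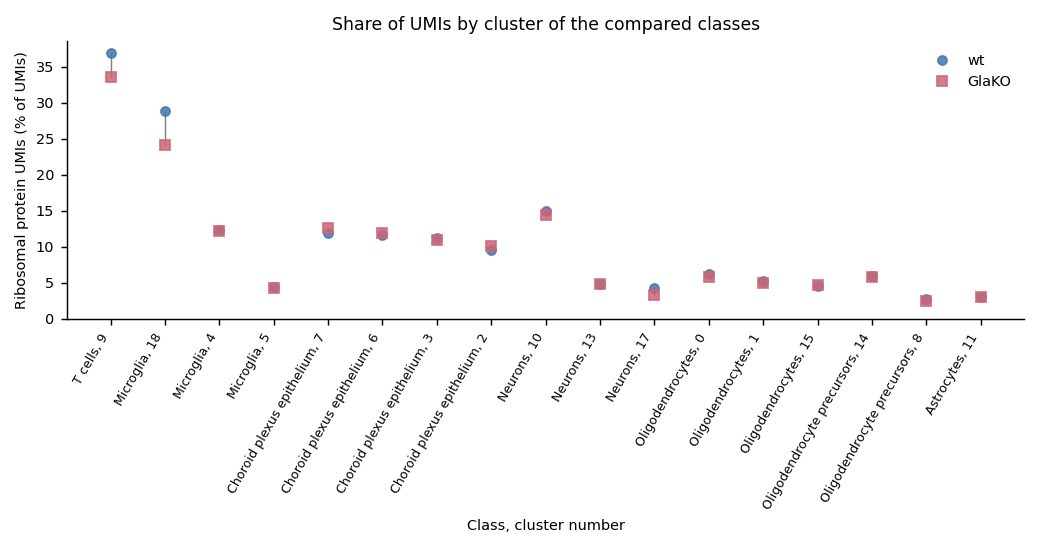
Share of summed UMIs from the ribosomal protein genes (y axis, percent) for each cluster (x axis, class and cluster number) with at least 15 cells in each library; circles are wt, squares GlaKO, joined by grey lines. Within neurons, cluster 10 has 15.0% in wt and 14.4% in GlaKO, while cluster 13 has 4.81% and 4.78%.

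Shares moved with depth in some classes. When choroid plexus cells were divided into 5 parts by UMIs per cell, the share in wt was 9.16% in the shallowest part and 11.9% in the deepest, and in GlaKO 8.52% and 12.3%. In microglia the shallowest part had 6.85% in wt and 6.24% in GlaKO and the deepest 14.5% and 13.1%. GlaKO cells were deeper in all 7 classes, with medians of 8611 UMIs against 5866.5 in choroid plexus epithelium as the widest gap. The part of depth in the differences between libraries was not separated beyond the values by depth given here.

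A member was called class-specific where its CPM was at least 2 times the median of the other 6 classes in both libraries, with at least 20 UMIs in each. CPM values are not divided by gene length, since each molecule is counted once at its 3' end. In T cells 79 of 83 members met the rule, where 20.6% of all genes reaching the minimum did. Those that did not included Rps27l, Rps19bp1 and Rpl7l1. In microglia 38 of 83 met it against 19.8% of all genes, and in choroid plexus epithelium 31 of 83 against 20.4%. In oligodendrocyte precursors 1 of 83 met it, Rpl13, against 31.9% of all genes. None met it in oligodendrocytes (background 15.4%), astrocytes (25.7%) or neurons (33.4%). These counts follow the class shares above. Lowering the rule to 1.5-fold gave 65 members in choroid plexus epithelium and 66 in microglia. The share of all genes at 1.5-fold was not set beside these 2 counts.

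Among the members that met the rule in microglia were the stalk proteins Rplp0, Rplp1 and Rplp2, which bind elongation factors. The small-subunit members there included Rps4x, Rps3a1, Rps27, Rps20, Rps9, Rps16, Rps13, Rps15a, Rps12, Rps24, Rps23, Rps29, Rps10, Rps28, Rps18 and Rps14. The large-subunit members there included Rpl37a, Rpl12, Rpl35, Rpl39, Rpl10, Rpl34, Rpl22, Rpl32, Rpl27a, Rpl29, Rpl26, Rpl23, Rpl37, Rpl30, Rpl35a, Rpl10a and Rpl17. Members of the large subunit that met the rule in choroid plexus epithelium included Rpl7, Rpl31, Rpl7a, Rpl35, Rpl39, Rpl10, Rpl36a and Rpl22. Also among them were Rpl13a, Rpl41, Rpl15, Rpl26, Rpl27, Rpl38, Rpl36al, Rpl35a and Rpl36. The small-subunit members included Rps27, Rps20, Rps9, Rps16, Rps15a, Rps12, Rps15, Rps26, Rps27l, Rps28 and Rps14. A gene could meet the rule in more than 1 class, as Rps12 and Rpl35 did. In T cells 79 of 83 members met it, so nearly all those listed here met it there too. Meeting the rule does not make a class the one with the highest CPM.

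To set aside the overall share, each member was also expressed as a percentage of the ribosomal protein UMIs of its class, a measure chosen after the class counts had been seen. For the median member the highest class was 1.80 times the lowest in wt and 1.79 times in GlaKO, with 54 and 57 members under 2-fold and 10 in each library over 3-fold. The class with the highest proportion was the same in both libraries for 68 of 83 members. At 2-fold over the median of the other classes, choroid plexus epithelium had 2 members, oligodendrocyte precursors 4 and astrocytes 1, and the other 4 classes none.

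Rpl13, a large-subunit member, stood out in oligodendrocyte precursors. It had 5281 UMIs (3800 CPM) in wt and 7868 (3900 CPM) in GlaKO, 2.21 and 2.43 times the median of the other classes. Its CPM was higher in T cells, 8450 in wt and 7260 in GlaKO. As a proportion of ribosomal protein UMIs the folds were 3.70 and 3.78. Both precursor clusters carried it. In the Pdgfra cluster Rpl13 made up 6.62% of ribosomal protein UMIs in wt and 6.35% in GlaKO, and in the Cacng4 cluster 9.12% and 8.93%. Over the oligodendrocyte, astrocyte and T cell clusters the proportion lay between 2.16% and 2.32%. At least 1 Rpl13 UMI was found in 94.7% of the wt cells of the Pdgfra cluster (91.3 to 97.1), in 91.4% of its GlaKO cells (87.6 to 94.4), and in every cell of the Cacng4 cluster. No single cell held more than 3.49% of the Rpl13 UMIs of these clusters. After cells were thinned to 1000 UMIs each, the CPM folds were 1.69 and 1.77, under the 2-fold rule. Another annotated gene, Gm20388, lies over the last exon of Rpl13 on the same strand.

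In choroid plexus epithelium Rpl41, Rps27l and Rpl36al made up a higher proportion of ribosomal protein UMIs than in the median of the other classes. Rpl41, the smallest ribosomal protein, had 92668 UMIs (5070 CPM) in wt and 52429 (7090 CPM) in GlaKO there, and its proportion was 2.51 and 2.85 times the median of the other classes. Rps27l, a paralog of Rps27, had 13630 UMIs (746 CPM) and 6007 (813 CPM), with folds of 3.17 and 3.18. Its proportion was also 2.46 and 2.21 times the median of the other classes in oligodendrocyte precursors, and 1.97 and 1.61 times in astrocytes. In T cells the same paralog had 115 UMIs (157 CPM) in wt and 209 (178 CPM) in GlaKO, the class in which its proportion was lowest. Rpl36al, a paralog of Rpl36a, had folds of 1.83 and 1.87 in the choroid plexus. For Rpl36al, too, T cells had the lowest proportion. The annotated gene Gm49383 lies over its last exon on the same strand, and how reads were divided between them was not tested.

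Proportions in the immune classes were moved by other members. In T cells Rpl12 was 2.16 and 1.97 times the median of the other classes, and Rpl39, Rps27, Rps19, Rps15a, Rps24, Rpsa and Rps18 were between 1.5 and 1.84 times. In microglia Rps29 was 1.88 and 1.90 times, Rplp1 1.78 and 1.82, Rps12 1.64 and 1.71, and Rps9 1.51 and 1.52. Rps29 was the member with the most UMIs over both libraries, 203552, followed by Rpl41 (197289), Rpl13 (126941), Rps27 (123503) and Rps24 (122719).

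Glial and neuronal classes differed in the paralogs and a few core members. Rpl22l1, a paralog of Rpl22, was 1.82 and 1.54 times the median of the other classes in oligodendrocyte precursors and 1.76 and 1.80 times in neurons. Rpl7l1 was 2.25 and 2.06 times in precursors and 1.93 and 2.12 in astrocytes, and Rps19bp1 2.37 and 2.32 in precursors and 2.61 and 2.77 in astrocytes. Rpl7l1 and Rps19bp1 were also among the 5 members with the fewest UMIs, 3699 and 3378, together with Rps27rt (1642), Rpl13a (11149) and Rpl23a (14097). Among core members, Rpsa was 1.79 and 1.63 times and Rpl4 1.56 and 1.53 times in oligodendrocytes. Rpl18 was 1.54 and 1.71 times in astrocytes. Rpl23a was 1.67 and 1.68 times in astrocytes and 1.5 times in both libraries in precursors.

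**Figure D3:**
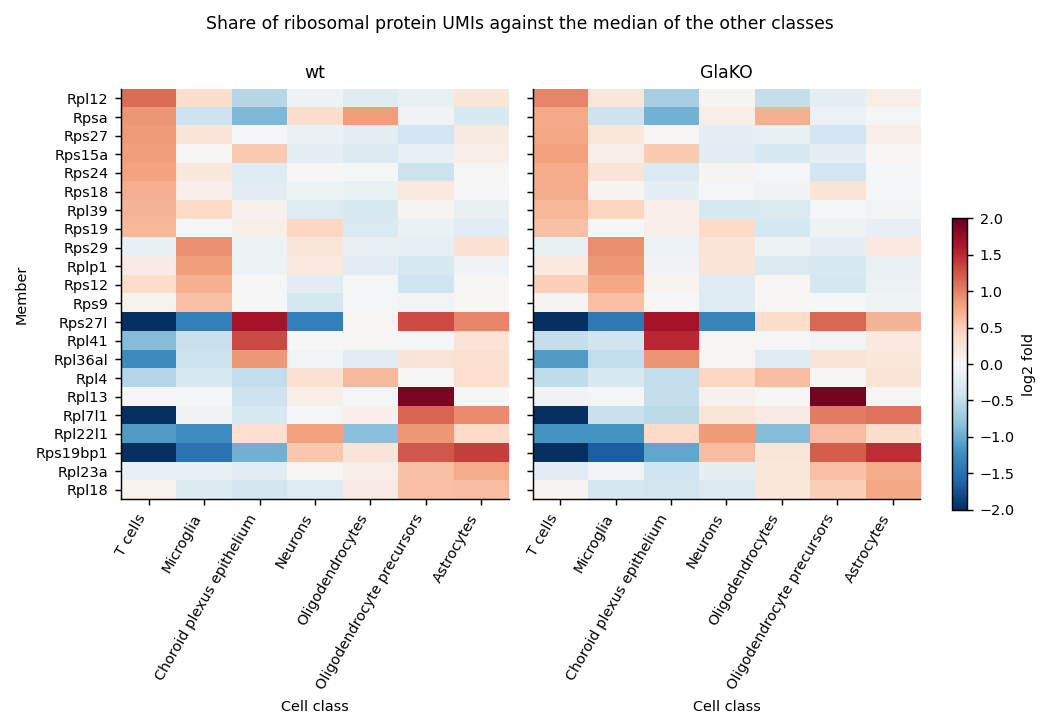
Proportion of ribosomal protein UMIs of each member (rows) in each class (columns), as log2 fold over the median of the other classes (colour), in wt and GlaKO; shown are the members at least 1.5-fold over that median in both libraries in any class, and colours stop at the ends of the bar. Rpl13 stands out in oligodendrocyte precursors (3.70- and 3.78-fold), Rps27l (3.17 and 3.18) and Rpl41 (2.51 and 2.85) in choroid plexus epithelium.

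Between the libraries, members moved little within a class. The median log2 ratio of GlaKO over wt (on CPM) was 0.05 in choroid plexus epithelium, where all 9433 genes compared had a median of 0.06. It was -0.09 in oligodendrocytes against 0.03 for all genes, 0.04 in oligodendrocyte precursors against 0.00, -0.01 in astrocytes against -0.01, and -0.04 in microglia against -0.02. The widest gaps from the median of all genes were in T cells, -0.14 against 0.06, and in neurons, -0.16 against 0.00. In T cells 62 of 81 members compared were lower in GlaKO, beside 1040 of 2503 of all genes. In neurons 74 of 82 were lower, beside 3956 of 7798, and in oligodendrocytes 71 of 83, beside 3791 of 8624. Genes with at least 100 UMIs over both libraries in a class were compared, and all 83 members were compared in choroid plexus epithelium, oligodendrocytes and microglia. In T cells Rpl7l1 and Rps19bp1 stayed under that minimum, and in oligodendrocyte precursors, astrocytes and neurons Rps27rt did.

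Neuronal clusters were present in different numbers in the libraries. The Cck cluster, which had the lowest ribosomal share, held 44 of the wt and 94 of the GlaKO neurons. Each of the 3 neuronal clusters had a lower share in GlaKO, 4.784% against 4.806% in the C1ql3 cluster being the smallest gap. The median log2 ratio of members in neurons was -0.09 with clusters given equal weight, -0.21 with cells thinned to 1000 UMIs and -0.20 with an equal split over depth, and the part of the make-up of the class was not tested. In T cells, which formed 1 cluster, the shares by depth were 30.2% in wt and 24.4% in GlaKO in the shallowest part and 43.6% and 34.3% in the deepest. The shallowest part held 42 wt and 34 GlaKO cells, and the deepest 16 and 60. In the deepest part the median was 6932.5 UMIs per cell in wt and 7750.5 in GlaKO, so depth was not fully matched there. Only the second of the 5 parts had a GlaKO share above wt, 32.6% against 32.3%. In choroid plexus epithelium the clusters holding most cells differed, clusters 3 and 7 in wt with 26.6% and 26.4% of the class and clusters 6 and 7 in GlaKO with 33.7% and 31.5%. Cluster 7, with Krt18 and Csrp2 among its leading genes, had no choroid marker among its 10 leading genes.

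Few members passed a 1.2-fold difference. In choroid plexus epithelium 5 of 83 were at least 1.2-fold higher in GlaKO, where 21.3% of all genes were, and 1 was lower (background 11.1%). Oligodendrocytes had 3 higher (11.6%) and 2 lower (7.4%), oligodendrocyte precursors 3 higher (14.5%) and 1 lower (12.2%), and astrocytes 3 higher (14%) and 2 lower (12.4%). Microglia had 3 higher (11.5%) and 1 lower (12.9%), and T cells 3 higher (24.7%) and 4 lower (10.7%). Neurons had 1 higher (15.1%) and 12 lower (13%). The neuronal members past the fold included Rpl35, Rpl13a and Rplp0 at log2 ratios of -0.41, -0.41 and -0.36. With neuronal clusters weighted equally 4 rather than 12 were lower, and without a doublet filter 6. With cells thinned to 1000 UMIs 25 were lower, with each library clustered alone 22, and with an equal split over depth 20. The share of all genes past the fold was not computed under these settings. Of the 82 members compared in 5 or more classes, 63 (76.8%) passed the fold in none, where 25.3% of 5375 genes passed it in none. Genes were not matched on their UMIs in these shares.

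**Figure D4:**
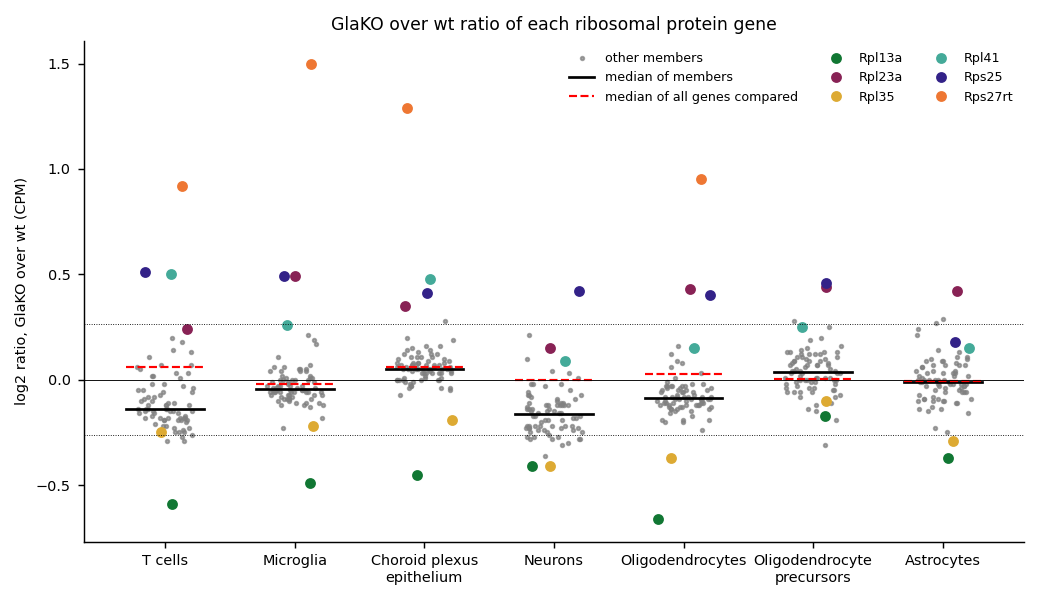
Log2 ratio of GlaKO over wt CPM (y axis) for each member with at least 100 UMIs in a class (points, spread sideways at random), by class (x axis); black lines are medians of members, red dashed lines medians of all genes compared, and dotted lines mark 1.2-fold. Most points lie between the dotted lines, and Rps27rt, Rps25, Rpl23a and Rpl41 lie above and Rpl13a and Rpl35 below the bulk of members in most classes.

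The members that passed the fold in many classes were the same few. Rps25, a small-subunit protein, had 9148 UMIs (501 CPM) in wt and 4929 (667 CPM) in GlaKO choroid plexus epithelium, a log2 ratio of 0.41 (0.36 to 0.46). Its CPM was 493 and 691 in microglia, 824 and 1180 in T cells, 282 and 377 in neurons, 245 and 323 in oligodendrocytes, 205 and 281 in precursors and 167 and 188 in astrocytes. GlaKO was the higher library in all 7 classes, and past 1.2-fold in all but astrocytes, where the log2 ratio was 0.18 (-0.08 to 0.43) and turned to -0.21 at the far end of its alternatives.

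Rpl23a, a large-subunit protein at the exit of the peptide tunnel, was also higher in GlaKO in all 7 classes. Its CPM was 216 in wt and 275 in GlaKO choroid plexus epithelium, 247 and 348 in microglia, 129 and 174 in oligodendrocytes, 143 and 194 in precursors and 105 and 140 in astrocytes. These 5 classes passed the fold, with log2 ratios between 0.35 and 0.49. Neurons (133 and 147 CPM, log2 ratio 0.15) and T cells (747 and 880 CPM, 0.24) did not, and the neuronal ratio reached -0.01 in an alternative. Rps25 and Rpl23a were the 2 members at least 1.2-fold higher in 5 or more classes, where 1.82% of 5375 genes were.

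Rpl13a was the only member at least 1.2-fold lower in 5 or more classes, where 0.484% of genes were. It encodes a large-subunit protein known also for silencing inflammatory messages when released from the ribosome. It had 5170 UMIs (283 CPM) in wt and 1530 (207 CPM) in GlaKO choroid plexus epithelium, a log2 ratio of -0.45 (-0.54 to -0.37). In oligodendrocytes its CPM was 106 and 67.3, a log2 ratio of -0.66 (-0.83 to -0.49), and in T cells 694 and 461, a log2 ratio of -0.59 (-0.77 to -0.41). Microglia (-0.49), neurons (-0.41) and astrocytes (-0.37) were also past the fold, and precursors, at -0.17 (-0.51 to 0.17), were not. In astrocytes its interval, -0.87 to 0.13, covered 0. The annotated gene Gm45713 lies over the last exon of Rpl13a on the same strand, and its part in these ratios was not tested.

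Rpl35 was lower in GlaKO in all 7 classes, with log2 ratios from -0.41 in neurons to -0.10 in precursors, and past the fold in 3. Rps12 was higher in all 7 classes, from 0.01 in neurons to 0.28 in choroid plexus epithelium and precursors, and was past the fold in those 2 classes. In neurons, T cells and astrocytes the Rps12 direction turned in some alternatives, to -0.34, -0.07 and -0.06. Rpl27 had the smallest range over classes, between 0.04 and 0.12 in all 7 classes. Among members past the fold in 1 or 2 classes, Rpsa was higher in astrocytes, 320 CPM in wt and 390 in GlaKO (log2 ratio 0.29), and Rpl36 lower in T cells, 6460 and 5280 CPM (-0.29). Rps7 had log2 ratios of -0.19 in precursors and 0.09 in astrocytes, and Rpl15 -0.07 in choroid plexus epithelium and -0.28 in neurons, where it passed the fold.

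Rps27rt had the highest ratios of any member, in all 4 classes where it could be compared. This gene is a single-exon copy of Rps27. It had 304 UMIs in wt and 301 in GlaKO choroid plexus epithelium, where GlaKO had fewer cells, a log2 ratio of 1.29 (1.06 to 1.53). In microglia it had 46 and 252 UMIs, a log2 ratio of 1.5 (1.04 to 1.98), in oligodendrocytes 48 and 170 (0.95, 0.48 to 1.45), and in T cells 74 and 225 (0.92, 0.54 to 1.32). Its parent Rps27 had ratios of 0.03, -0.12, -0.11 and -0.27 in those classes. Rps27rt gave only 1642 of the UMIs of the pair against 123503 for Rps27, so the ratio of the sum stayed within 0.02 of that of Rps27 in these 4 classes.

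Near-identical transcripts were found for most members, and the search was not run for other genes. In the GENCODE annotation of GRCm38, 73 of 83 members had another gene matching their coding end at 98% identity or more over at least 90 bases on the same strand, and 10 had none. The search used the last 200 coding bases and the 50 bases after the stop codon. Rps25 had 3 such genes, Rpl23a 9, Rpl13a 2, Rpl35 2, Rps12 15 and Rpl41 1. Of the 73 members with such a gene 53 passed the 1.2-fold difference in no class, as did the 10 without one. The part of near-identical genes in the ratios was not tested, and how the authors' counting assigned reads matching several genes is not given in the sources used here. Of the near-identical genes, 9 were listed in both libraries, 1 of them the member Rps27rt.

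Rpl41 and its copy Gm10076 moved in opposite directions. Gm10076, annotated as a long non-coding RNA on chromosome 14 (105681828 to 105682211, plus strand, GRCm38), had 40447 UMIs in wt and 7441 in GlaKO choroid plexus epithelium, a log2 ratio of -1.14 (-1.17 to -1.10). Over the other 6 classes its log2 ratio lay between -1.49 and -1.22. Rpl41, on chromosome 10 (128548114 to 128549305, minus strand), had log2 ratios of 0.48 (0.47 to 0.50) in choroid plexus epithelium and 0.50 (0.44 to 0.57) in T cells, and of 0.09 to 0.26 in the other 5, with neurons at -0.035 in an alternative. Their sum had log2 ratios of 0.15 in choroid plexus epithelium, 0.07 in T cells, -0.04 in precursors, -0.10 in microglia, -0.13 in astrocytes, -0.15 in oligodendrocytes and -0.21 in neurons. The sum was within 1.2-fold in all 7 classes.

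The remaining copies were rare beside their parents. Gm2000, near-identical to Rpl35, had 161 UMIs in wt and 110 in GlaKO choroid plexus epithelium (log2 ratio 0.76, 0.39 to 1.11) against 30450 and 10788 for Rpl35. Gm10073, near-identical to Rplp1, had 214 and 44 UMIs there (-0.98, -1.48 to -0.50) against 28827 and 13056 for Rplp1. Rpl10-ps3, near-identical to Rpl10, had 152 and 127 UMIs there (1.05, 0.69 to 1.39). The intervals of Rpl9-ps6, Rpl27-ps3, Wdr89 and Gm9493, which match Rpl9, Rpl27, Rplp2 and Rps7, covered 0 in that class.

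**Figure D5:**
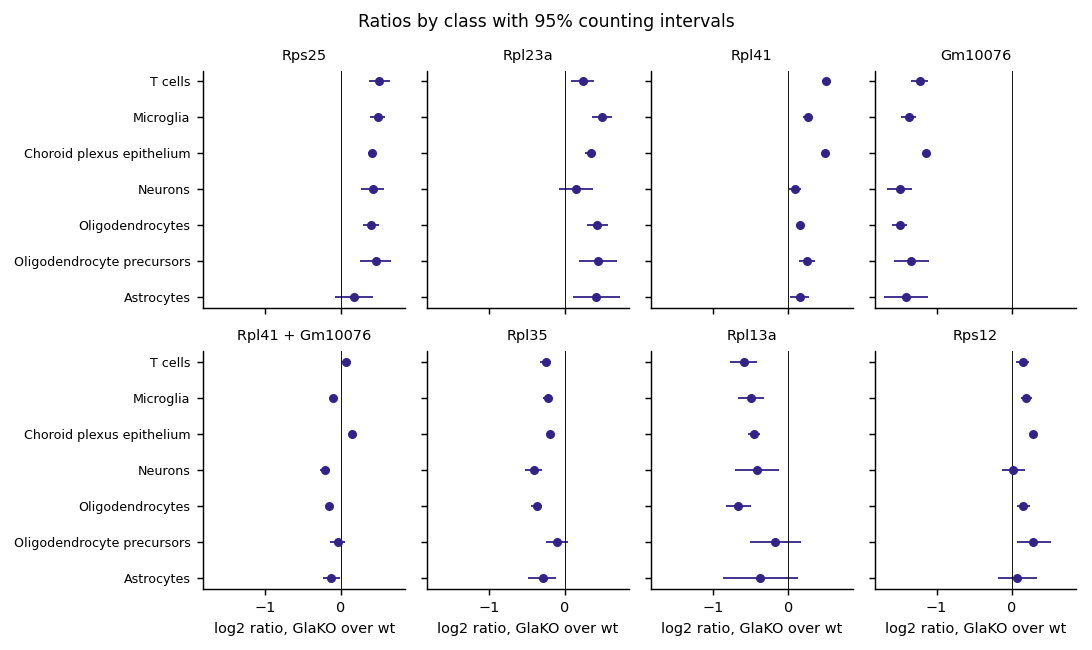
Log2 ratio of GlaKO over wt CPM (x axis) in each of the 7 classes (y axis) for Rps25, Rpl23a, Rpl41, Gm10076, the sum of Rpl41 and Gm10076, Rpl35, Rpl13a and Rps12; points are ratios and bars 95% counting intervals. Gm10076 lies below 0 in every class, and the sum of Rpl41 and Gm10076 lies between -0.21 and 0.15.

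Start sites were examined for the TOP motif, since it is the sequence feature the family is known for. The motif searched was a C followed by at least 4 bases that are C or T, beginning within 5 bases of an annotated start on the coding strand, in RefSeq sequence of GRCm38.p6. Of 63 members with an entry, 30 (47.6%) held it at a start. Of all 27025 genes with entries, 21.2% held it, and of the 9921 genes listed in both libraries 24.0%. A missing match says only that these letters were not at that annotated start. The windows of 30 bases centred on the start are shown for members that the results turn on, with the matched run in capitals. They are on chr2:39005117-39005146 (minus strand) for Rpl35, chr7:45128731-45128760 (minus) for Rpl13a, chr3:90213634-90213663 (minus) for Rps27 and chr9:114982725-114982754 (minus) for Rps27rt. Those without a match are on chr9:44407699-44407728 (plus) for Rps25, chr10:128549154-128549183 (minus) for Rpl41 and chr8:123102335-123102364 (plus) for Rpl13.
Rpl35: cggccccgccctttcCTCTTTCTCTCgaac
Rpl13a: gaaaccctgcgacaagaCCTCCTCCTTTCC
Rps27: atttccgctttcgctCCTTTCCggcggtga
Rps27rt: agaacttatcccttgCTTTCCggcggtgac
Rps25: tttttccgacatcttagcgaggctgctgtg
Rpl41: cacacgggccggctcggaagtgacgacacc
Rpl13: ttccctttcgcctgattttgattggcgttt
The matched run was 11 bases in Rpl35, 7 in Rps27 and 6 in Rps27rt. In Rpl13a it was 14 bases and went past the end of the window shown.

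Rpl36a lies beside the targeted gene. On chromosome X of GRCm38 it spans 134585654 to 134588062 on the plus strand and ends 86 bases from Gla, which spans 134588149 to 134601125 on the minus strand. Its CPM was 925 in wt and 975 in GlaKO choroid plexus epithelium (log2 ratio 0.08, 0.04 to 0.12), 303 and 256 in oligodendrocytes (-0.24, -0.34 to -0.15) and 406 and 334 in neurons (-0.28, -0.42 to -0.14). The intervals covered 0 in the other 4 classes, with log2 ratios between -0.14 and 0.01. The other members on chromosome X had similar ranges: Rpl10 from -0.25 to 0.13, Rpl39 from -0.27 to 0.05 and Rps4x from -0.14 to 0.19. Of 18 listed genes in a set on chromosome X around Gla, Gla and Rpl36a included, 14 could be compared in choroid plexus epithelium. Their median log2 ratio was 0.17, beside 0.06 for all genes. Of the 14, 7 were at least 1.2-fold higher and 3 lower, where 21.3% and 11.1% of all genes were. The medians of this set elsewhere ran from -0.17 in neurons to 0.09 in microglia.

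Among the paralogs, Rpl22l1 had log2 ratios of -0.31 (-0.46 to -0.16) in precursors and -0.29 (-0.41 to -0.17) in T cells, and 0.01 in choroid plexus epithelium. Rps27l ranged from -0.25 in astrocytes to 0.18 in T cells, Rpl36al from -0.03 in oligodendrocytes to 0.20 in choroid plexus epithelium, and Rps19bp1 from -0.23 in microglia to 0.00 in astrocytes. Rpl7l1 was highest in astrocytes, at 0.27 (-0.25 to 0.81), with 52 UMIs in wt and 80 in GlaKO. The 6 genes taken in by name had medians between -0.16 in neurons and 0.15 in T cells.

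Some ribosomal proteins carry other names. Fau, a fusion that yields the small-subunit protein eS30, had log2 ratios between -0.05 and 0.23 over the 7 classes, and Rack1, a scaffold on the small subunit, between -0.15 and 0.05.

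Other genes of translation were read from lists chosen by function. Ribosome biogenesis factors, which process and assemble ribosomal RNA and subunits, were higher in GlaKO in choroid plexus epithelium for 29 of 32 genes compared, with a median log2 ratio of 0.24 beside 0.06 for all genes, of which 5775 of 9433 were higher. In that class 15 of the 32 were at least 1.2-fold higher and none lower, where 21.3% and 11.1% of all genes were. Wdr74 had 145 UMIs in wt and 142 in GlaKO there (7.94 and 19.2 CPM, log2 ratio 1.27), Nifk 547 and 346 (log2 ratio 0.64) and Nop16 595 and 355 (32.6 and 48.0 CPM, 0.56). The abundant nucleolar proteins moved less: Ncl had a log2 ratio of 0.09 (0.02 to 0.15) and Fbl 0.09 (-0.11 to 0.28). The biogenesis list was not higher throughout, with medians of 0.15 in astrocytes, 0.03 in oligodendrocytes, 0.00 in precursors, 0.02 in T cells, -0.02 in microglia and -0.05 in neurons. The members themselves had a median of 0.05 in choroid plexus epithelium. With TMM scaling the choroid median of the biogenesis list was 0.16 and that of the members -0.03.

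Initiation factors, which load messages onto the small subunit, had medians from -0.05 in microglia to 0.06 in precursors. In precursors 7 of 31 were at least 1.2-fold higher and none lower, beside 14.5% and 12.2% of all genes, with Eif2s2 at 322 UMIs in wt and 693 in GlaKO (log2 ratio 0.56, 0.37 to 0.76). Elongation factors had medians from -0.09 in neurons to 0.10 in choroid plexus epithelium, where all 7 were above 0. Their share of UMIs was highest in T cells, 1.05% in wt and 1.00% in GlaKO, and lowest in astrocytes, 0.156% in both libraries. Choroid plexus epithelium, at 0.606% and 0.641%, lay above microglia, at 0.542% and 0.533%, and oligodendrocytes, at 0.373% and 0.358%, above neurons, at 0.324% and 0.303%. By summed UMIs both pairs stood in the reverse order for the members. The per-cell medians of the members put them in the same order as these elongation factor shares. In wt and GlaKO these medians were 11.1% and 11.6% in choroid plexus epithelium against 10.3% and 10.9% in microglia. Oligodendrocytes had 5.61% and 5.3% against 4.38% and 3.52% in neurons. Other genes with TOP messages had medians from -0.09 in microglia to 0.02 in choroid plexus epithelium and precursors. Within that list Pabpc1, the poly(A)-binding protein, had log2 ratios of 0.60 in choroid plexus epithelium, 0.83 in oligodendrocytes and 0.50 in T cells. Genes that control TOP translation, such as Larp1 and the mTOR pathway, had medians from -0.04 in astrocytes to 0.14 in T cells, where 3 could be compared.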

How the data were processed

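The authors deposited, for each of 2 libraries, a matrix of whole-number UMI counts per gene and cell. Per the submitters' processing notes, Cell Ranger 6.0.1, R 4.1.3 and Seurat 4 were used, with build mm10. How reads that match several genes were counted is not given in the sources used here. Members and lists were chosen with earlier results of these data known. Genes were named by this rule: the 3 highest and 3 lowest members per class, members past 1.2-fold in 5 or more classes, class-specific members, the 5 most and 5 least abundant, paralogs, and members on chromosome X.

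Barcodes with at least 500 genes and at most 20% mitochondrial UMIs were kept, which removed none. Scrublet doublets were removed. Counts were scaled to 10000 per cell, and 2000 variable genes, 30 principal components, 15 neighbours and Leiden resolution 1.0 gave the clusters (scanpy 1.11.5). A cluster took a class name from markers found in at least 10% of cells. UMIs were summed per class and library and divided by the class total (CPM). Ratios have exact conditional binomial intervals and shares exact Clopper-Pearson intervals. The median interval is from order statistics. The ratio code was checked on simulated data. Near-identical transcripts were found with BLAST 2.17.0 and scaling factors with edgeR 4.0.16 in R 4.3.3. Alternatives included thinning, doublet handling, clustering, scaling, denominators and count minimums. Some genes are not reported here.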

Additional observations from a re-analysis of the deposited data

How the results depend on the processing

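No paired analysis was possible because each genotype has 1 library, and for the same reason no replicate could be left out. The T cell median of members lay between -0.21 and -0.11 over its alternatives and the neuronal median between -0.21 and -0.09, both below 0 throughout, as was the oligodendrocyte median (-0.11 to -0.04). The choroid plexus (-0.03 to 0.07), precursor (-0.11 to 0.04), astrocyte (-0.11 to 0.10) and microglial (-0.08 to 0.01) medians took both signs. No value past 1.2-fold changed sign. Counts of members past the fold were not set beside shares of all genes under the alternatives. For the values below, which left the main interval or moved by over 1.5 times, the cause was not tested except where the setting tests fewer genes.

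Thinning to 1000 UMIs gave medians of 0.072 in choroid plexus epithelium, -0.027 in precursors, -0.094 in astrocytes, 0.008 in microglia and -0.208 in neurons, 1 member higher and 0 lower in 5 or more classes, and 0 class-specific members in precursors. An equal split over 5 parts of depth gave -0.011, -0.105, -0.107, -0.073 and -0.201 in those 5 classes and -0.187 in T cells, with 1 member higher and 2 lower in 5 or more classes. Clusters given equal weight gave 0.026 in choroid plexus epithelium, -0.036 in oligodendrocytes, -0.082 in precursors and -0.092 in neurons, with 1 higher and 0 lower. TMM scaling gave -0.033 in choroid plexus epithelium, -0.102 in oligodendrocytes, -0.022 in microglia and -0.196 in T cells, with 1 higher and 2 lower. Median-of-ratios scaling gave -0.032, -0.107 and -0.195 in choroid plexus epithelium, oligodendrocytes and T cells, with 2 lower. A minimum of 500 UMIs left 1 higher and 0 lower. Without a doublet filter the medians were 0.033 in choroid plexus epithelium, 0.102 in astrocytes and -0.161 in T cells, and with the top 4% of doublet scores removed -0.061 in astrocytes. Leaving member UMIs out of the denominator gave -0.214 in T cells, leaving mitochondrial UMIs out gave 0.037 in choroid plexus epithelium, and clustering each library alone gave -0.077 in microglia. The next pair of alternatives was chosen after seeing the data. Members with no near-identical transcript had medians of 0.043 in choroid plexus epithelium, 0.035 in astrocytes and -0.161 in T cells, with 0 members higher or lower in 5 or more classes. Levels relative to the sum of members gave 2 class-specific members in choroid plexus epithelium, 4 in precursors, 1 in astrocytes, 0 in microglia and 0 in T cells. The 1.5-fold rule gave 65 in choroid plexus epithelium and 66 in microglia, without the share of all genes at 1.5-fold beside them. The highest class share over the lowest stayed within 1.5 times of 12.4 in wt and 11.3 in GlaKO under every alternative run for it.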

Other observations

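Classes with fewer than 100 cells in a library were kept out of the comparisons, and their ribosomal protein shares are given as values. B cells had 19.6% of UMIs in wt (13 cells) and 26.4% in GlaKO (18 cells). Border macrophages, which lie along vessels and meninges, had 17.9% (34 cells) and 18.9% (47 cells), above the microglial shares of 12.29% and 12.04%. Endothelial cells had 10.7% (99 cells) and 7.16% (36 cells), and pericytes and smooth muscle 7.57% (33 cells) and 6.52% (14 cells). Ependymal cells had 7.41% (6 cells) and 6.65% (7 cells). In the endothelial cluster 1 GlaKO cell gave 15.7% of the Rpl13 UMIs, so values of single members there rest on few cells.

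Over all cells together the share was 10.1% in wt and 9.20% in GlaKO, and the class make-up differed: choroid plexus epithelium was 2608 of the 5417 wt cells and 801 of the 4511 GlaKO cells. Values over all cells therefore cannot be told apart from cell make-up, as for Rpl41, whose log2 ratio was -0.24 over all cells and above 0 in each of the 7 classes.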
